A study of Mus musculus with 21 samples.

Results

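Trimethylation of histone H3 at lysine 36 (H3K36me3) was mapped in C2C12, a mouse myoblast line, and the stretches described here carried the mark in every wild-type control library and in no methionine-restricted wild-type library. They were chosen by base: a base on chromosomes 1 to 19 had to lie inside a peak of all 6 control lists and outside every peak of the 4 restricted lists, and runs of at least 500 bp were kept. This gave 3618 lost intervals with 3.54 Mb in all. They are stretches within the 81.4 Mb, in 38711 intervals, that were constant across the 6 control lists, and make up 4.34% of those bases. Another 28024 intervals (49.8 Mb) lay inside peaks of all 10 wild-type lists and are called kept intervals. The opposite pattern, inside all 4 restricted lists and outside all 6 control lists, was met by 3 intervals with 0.00176 Mb. That rule asked for absence from 6 larger lists (138 to 181 Mb each), the main rule for absence from 4 smaller ones (108 to 132 Mb). The counts of these rules are therefore not like for like.

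Peaks came from chromatin immunoprecipitation and sequencing (ChIP-seq) with an H3K36me3 antibody. The wild-type control groups were D0, D1_CTL and D5_CTL (day 0, and days 1 and 5 in control condition), and the restricted groups were D1_MR and D5_MR (days 1 and 5 under methionine restriction), with 2 libraries each. The labels do not say whether the libraries of a group came from separate cultures. Both lines labelled Setd2 knockout, KO_1 and KO_2, had 1 library in each of the 5 conditions, and their lists played no part in the choice of intervals. The labels name no clone, guide or allele for these lines. Peak names inside the lists call KO_1 and KO_2 replicates of a single KO group, so the separation of the lines rests on the labels.

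H3K36me3 is laid down by SETD2, which travels with elongating RNA polymerase II, so the mark covers the bodies of transcribed genes and usually builds up away from the promoter. The mark recruits a DNA methyltransferase to gene bodies and helps to keep transcription from starting inside genes. The methyl groups come from S-adenosylmethionine, which cells make from methionine. C2C12 myoblasts fuse into myotubes in culture, under the control of factors such as MyoD and microRNAs such as miR-206.

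The choice of intervals rests on whether a peak was called, so the absence from restricted lists is a description and was not tested. The control lists covered 138 to 181 Mb of the autosomes and the restricted lists 108 to 132 Mb. Peak lists carry no read depth, so the depth behind each list is unknown. In a bulk sample a mark lost from some cells and a mark lowered in all cells cannot be told apart. Cover of the Setd2 gene, which holds 1 lost interval of 594 bp, was 62.4% to 82.8% in the 6 control libraries and 45.6% to 60.7% in the 4 restricted ones. In KO_1 it was at most 24.0%, and in KO_2 no base of Setd2 lay inside a peak. Peaks on Setd2 report the mark there and not the loss of the protein.

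Among the lost intervals were stretches over 17 microRNA hairpins, named after their values were seen. These include microRNAs studied in muscle (miR-206), in fibroblasts and matrix (miR-29a, miR-21a, miR-199a, miR-214) and the cluster of miR-23a and miR-27a. The mature sequences below show which products are concerned. They are from RefSeq (GRCm38.p6) and run 5′ to 3′ with the seed, bases 2 to 8, in capitals.
mmu-miR-206-3p: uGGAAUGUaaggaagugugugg
mmu-miR-214-3p: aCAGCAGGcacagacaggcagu
mmu-miR-199a-5p: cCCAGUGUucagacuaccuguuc
mmu-miR-29a-3p: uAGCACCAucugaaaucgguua
mmu-miR-21a-5p: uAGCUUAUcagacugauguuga
mmu-miR-23a-3p: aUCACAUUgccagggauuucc
mmu-miR-27a-3p: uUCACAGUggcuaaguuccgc
mmu-miR-130a-3p: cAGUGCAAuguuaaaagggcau
mmu-miR-301a-3p: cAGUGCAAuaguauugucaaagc
The last pair, miR-130a-3p and miR-301a-3p, share the seed AGUGCAA although their genes lie on chromosomes 2 and 11. The other 7 seeds printed are each different.

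Of 919 hairpins on these chromosomes, 244 lay in constant intervals, 148 in kept intervals and 17 in lost intervals. The lost share of constant hairpins was 6.97%, beside 4.34% for constant bases. Neighbouring hairpins share an interval, so these are not independent. The interval with Mir23a and Mir27a, which also reached part of Mir24-2 and of Mir3074-2 on the other strand, spanned 4862 bp (chr8:84203999-84208860, GRCm38), outside every protein-coding gene. That with Mir21a spanned 3767 bp (chr11:86582245-86586011) within Vmp1, a gene of autophagosome formation. Mir206 lay in an interval of 1913 bp (chr1:20678674-20680586) within the muscle transcript Lincmd1. Mir214 lay in 1366 bp (chr1:162222672-162224037) inside Dnm3, and Mir199a-1 in 1580 bp (chr9:21495055-21496634) inside Dnm2, both of them dynamin genes.

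Lost intervals were short. Their median length was 767 bp against 1130 bp for kept intervals, and 1108 of them reached 1000 bp, 205 reached 2000 bp and 9 reached 5000 bp. Many intervals lay near the threshold: 468 intervals of 500 to 549 bp were taken in, and 600 of 450 to 499 bp were left out. Every autosome held between 90 and 419 of them. A border with a restricted peak was found on both sides of 525 intervals (14.5%) and on 1 side of 1682 (46.5%). The remaining 1411 (39.0%) stood free of any restricted peak, at a median distance of 1555 bp, and 287 of these were over 5 kb away.

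Constant territory was also missing from some restricted lists and present in others. Of 89.3 Mb of constant territory counted at any length, 63.1% lay in all 4 restricted lists, 15.9% in 3 of them, 8.51% in 2, 5.64% in 1 and 6.83% in none. The last class is the one from which the lost intervals come.

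Protein-coding genes held 3279 of the lost intervals (90.6%), against 98.1% of kept intervals. There were 1662 distinct host genes, of which 1055 held 1 interval and 131 held at least 5. The host with the most, 32, was Runx1, which encodes a transcription factor best known from blood formation. Of 7930 protein-coding genes with at least 500 bp of constant territory, 1653 had at least 500 bp of it in lost intervals, or 20.8%. At least 50% of the constant territory was lost in 235 genes, or 2.96%, and all of it in 101. These shares are the background for each gene group below, and since the rule used this contrast no test is attached to them.

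Lost intervals lay nearer the start of the gene than kept intervals. Gene direction was known for 79.6% of protein-coding genes, which placed 2522 lost and 22159 kept intervals. The median position was 44.7% of the way from start to end for lost intervals, with the middle 50% between 22.8% and 73.3%. For kept intervals it was 68.8%, between 46.6% and 85.5%. With the gene divided into 3 equal parts, 37.3% of lost intervals lay in the first, 32.4% in the middle and 30.4% in the last, against 13.6%, 33.7% and 52.6% of kept intervals. The median distance from the start was 14.1 kb for lost and 27.1 kb for kept intervals. With peaks of −log10 q of at least 3 only, the medians were 54.3% and 70.3%, and with all wild-type lists shortened by −log10 q to equal covered length they were 51.5% and 70.2%.

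The share of constant bases that was lost was highest at the start of genes. With gene bodies divided into 10 equal parts it was 18.9% in the first, 11.1% in the second and 7.16% in the third, and between 2.23% and 2.71% from the seventh on. Constant territory itself was smallest there, 1.26 Mb in the first part against 11.1 Mb in the last. In hosts of 10 to 30 kb the share went from 30.7% in the first part to 1.40% in the eighth. In hosts over 100 kb it went from 10.6% in the first to 1.88% in the last. In genes up to 10 kb the highest share, 26.4%, was in the second part, and the first and the last had 16.9% and 9.36%.

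Each restricted library had this gradient by itself. The share of constant bases outside the list in the first part was 44.1% and 53.1% in the D1_MR libraries and 41.0% and 39.1% in the D5_MR libraries. In the ninth it was 12.7% and 18.2%, then 9.49% and 9.06%. The D1_MR library of replicate 2 missed most in every part, and the D5_MR libraries missed least. The 4 libraries spanned 39.1% to 53.1% at the start and 9.06% to 18.2% in the ninth part, so these ranges did not overlap.

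**Figure D1:**
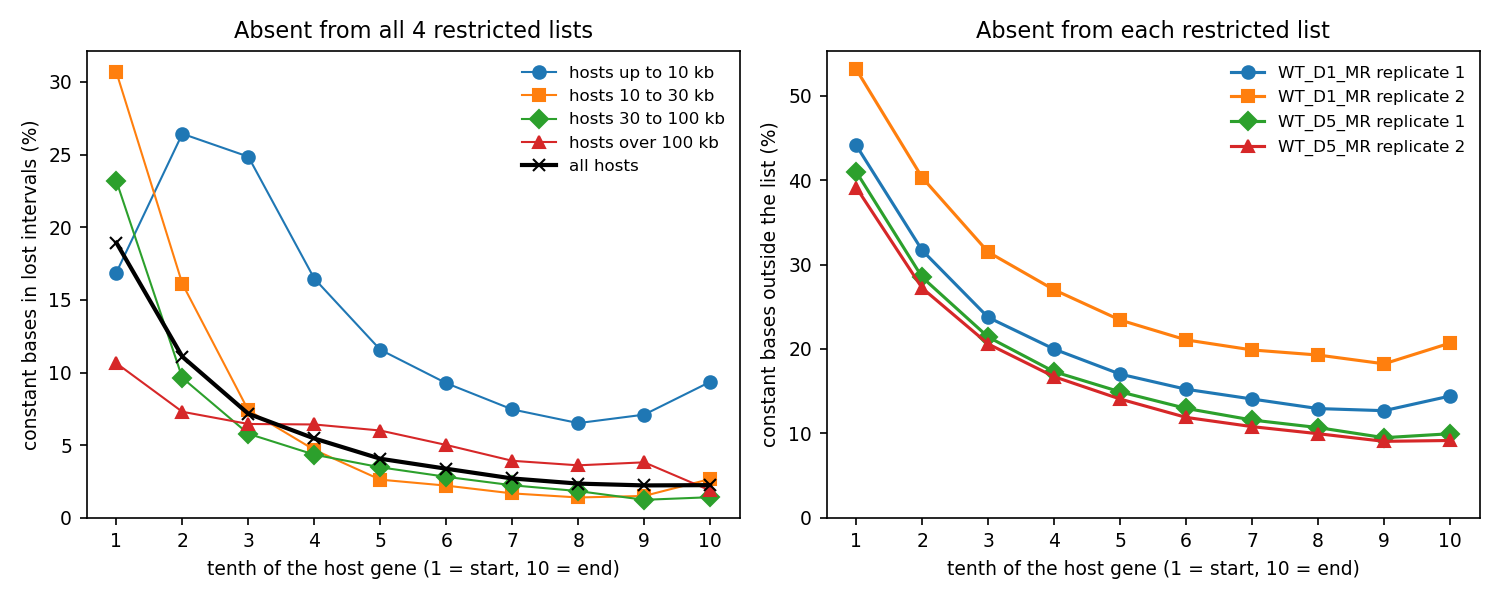
Left, percent of constant bases (y axis) that fell in lost intervals, in 10 equal parts of the host gene from start to end (x axis), for 4 classes of host length and all hosts. Right, percent of constant bases outside each of the 4 restricted lists. The line of all hosts falls from 18.9% to 2.25%, and the first part is above 39% in every restricted library.

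Short genes lost the largest share, and very long genes more than those of middle length. The share of constant bases lost was 19% in genes up to 5 kb, 7.41% from 5 to 10 kb and 4.04% from 10 to 20 kb. It was lowest at 3.35% from 20 to 50 kb and was 6.12% above 200 kb, against 4.18% over all genes tested. With −log10 q of at least 3 these shares were higher, 38.4% up to 5 kb, 7.81% from 20 to 50 kb and 15.3% above 200 kb, and 33.9% of genes tested had lost territory. Genes up to 5 kb also had the most with at least 50% lost, 120 of 642 (18.7%), while above 200 kb there were 4 of 228 (1.75%). The 235 genes with at least 50% lost had a median length of 4.90 kb against 24.4 kb for all genes tested, and 170 of them were up to 10 kb long. Over intervals the median host was 41.2 kb long for lost and 48.0 kb for kept intervals.

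Single restricted libraries had the same order. In genes up to 5 kb, 51.0% and 58.3% of constant bases were outside the D1_MR lists and 40.7% and 39.2% outside the D5_MR lists. From 20 to 50 kb the values were 14.4%, 20.3%, 12.2% and 11.3%, and above 200 kb they were 23.8%, 31.9%, 19.7% and 18.1%. In all 4 libraries the short and the very long genes were thus above the middle class.

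**Figure D2:**
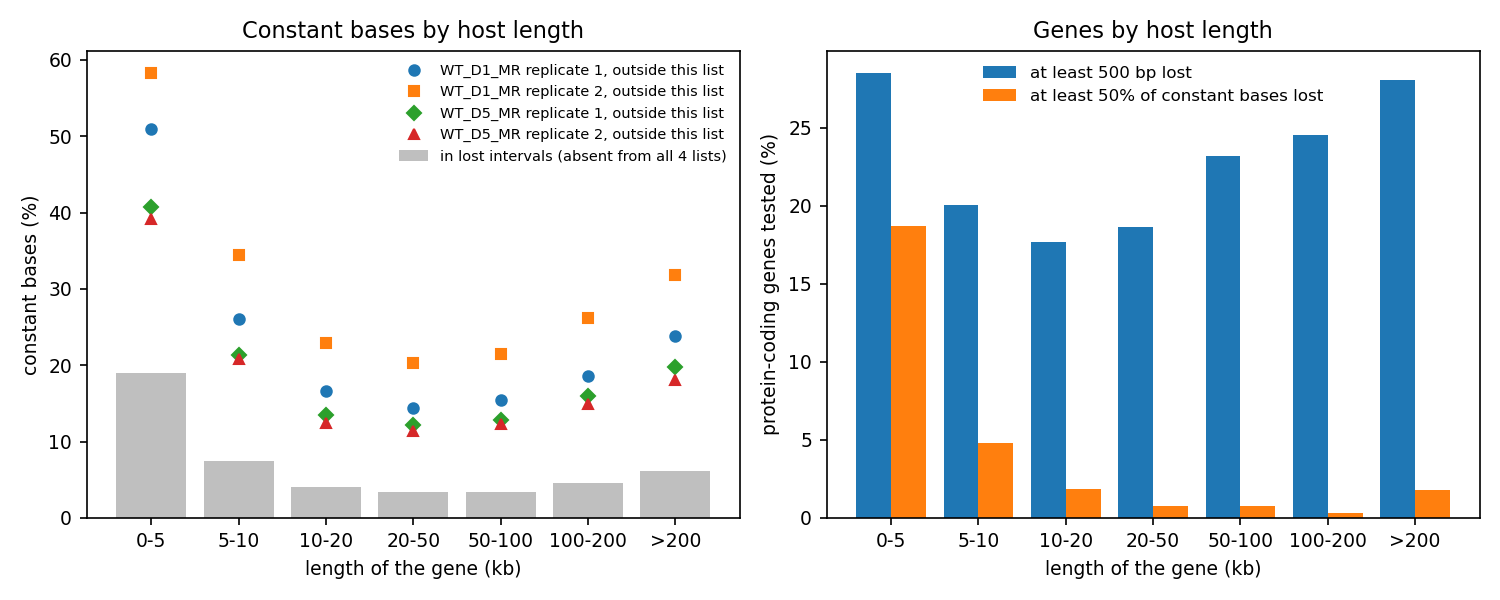
Left, percent of constant bases (y axis) in lost intervals (bars) and outside each restricted list (points), by length of the gene in kb (x axis). Right, percent of the protein-coding genes tested that had at least 500 bp, or at least 50%, of their constant bases lost, with 18.7% of genes up to 5 kb in the second class.

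Long genes with the most lost bases kept a reduced, broken cover. Runx1 (chr16:92601466-92826074) lost 42.3 kb. Its body was covered to 80.4% and 78.1% at D0, 76.8% and 80.3% in D1_CTL, and 92.2% and 91.3% in D5_CTL. Under restriction it was covered to 24.8% and 16.6% at D1 and 27.6% and 32.2% at D5. Every restricted library was below every control library, as the choice of intervals favours.

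Myh9 (chr15:77760585-77842175), the heavy chain of non-muscle myosin IIA, lost 25.3 kb in 11 intervals. Its cover was 89.1% to 97.8% in the control libraries and 45.2% to 49.96% in the restricted ones. Dusp10, a phosphatase of stress-activated kinases, lost 21.0 kb, or 51.0% of its body. Its control libraries ranged from 86.4% to 94.3% and its restricted libraries from 14.3% to 19.1%. Septin9, a cytoskeletal GTPase, lost 28.2 kb in 26 intervals and went from 49.2% to 59.7% in control libraries to between 6.37% and 11.3%. Nfix, a transcription factor of the fetal muscle programme, lost 19.9 kb in 20 intervals, with cover of 57.8% to 81.7% against 7.51% to 18.2%.

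The others of the 10 hosts with most lost bases were Aopep, an aminopeptidase gene, Mtss1, Zmiz1, Niban2 and Cd44, the hyaluronan receptor. They lost 18.8 to 31.6 kb each. Cd44 kept the most cover under restriction, 45.4% to 53.0%, and Aopep the least, 4.60% to 6.43%, of a body that control libraries covered to no more than 24.1%.

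Some short hosts had no cover left in any restricted library. Rhob (chr12:8497661-8500009), a small GTPase of the actin skeleton, had 82.4% and 85% of its body inside peaks at D0. Its values were 88.7% and 87.0% in D1_CTL and 79.9% and 82.6% in D5_CTL, and no base was inside a peak in any of the 4 restricted libraries. Jun (chr4:95049036-95052222), a subunit of the AP-1 factor, had 71.9% and 70.4%, then 73.6% and 69.2%, then 66.0% and 69.3% in the same order. It too had no covered base in the restricted libraries.

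Of the 10 hosts of at least 2 kb with the highest share of the body lost, 6 had no covered base in any restricted library. The ranking itself favours this, since lost bases are absent from all 4 restricted lists. Besides Rhob and Jun these were Irf2bpl, Vamp2, a vesicle SNARE, Ddit4, an mTORC1 inhibitor induced by stress, and Cited2, a partner of the CBP and p300 coactivators. The control cover of these last 4 ranged from 65.1% to 82.8%. Purb, Btg1, Snai1 and Rps18 kept a remnant in 1 or more restricted libraries, at most 19.5% (Snai1, D5_MR replicate 1). Snai1 encodes a repressor of epithelial genes and Btg1 an antiproliferative factor. Rps18 has processed copies elsewhere in the genome, so its value is uncertain. Of its 2710 lost bases, 1846 lie in an interval inside the gene and the rest in another that runs into B3galt4.

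**Figure D3:**
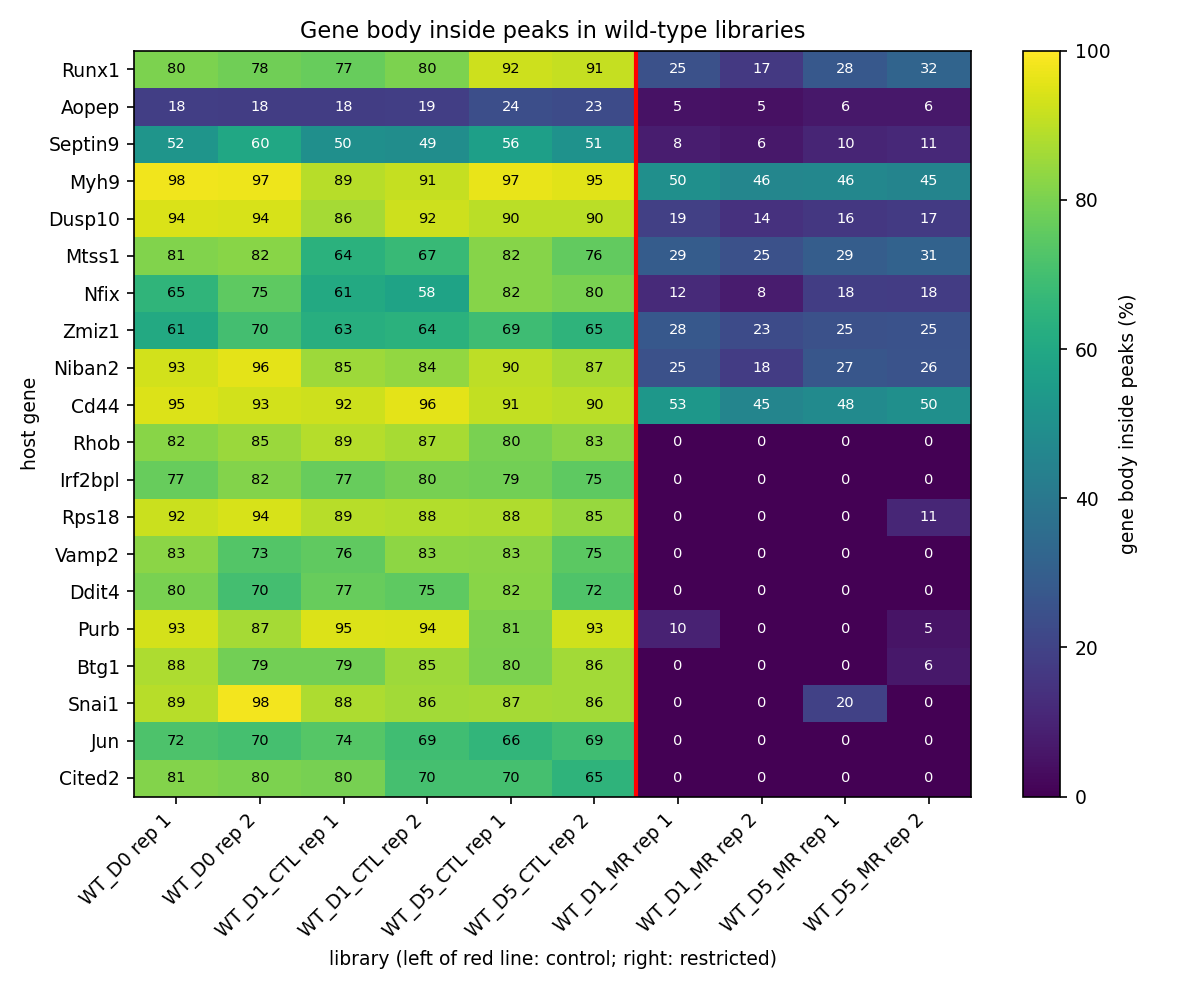
Percent of each gene body inside peaks (colour and printed number, from 0 to 100) for the 20 host genes with the most lost bases or the highest share of the body lost (rows), in the 6 control and 4 restricted wild-type libraries (columns). Rhob, Irf2bpl, Vamp2, Ddit4, Jun and Cited2 stand at 0 in all 4 restricted columns.

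The longest lost interval spanned 8211 bp (chr7:143054986-143063196) inside Cd81, which encodes a tetraspanin that takes part in myoblast fusion. Next came 7236 bp near the end of Runx1 (chr16:92621973-92629208), with its midpoint 89.3% of the way along the gene, and 6035 bp in the first part of Myh9 (chr15:77823262-77829296), at 19.5%. Stretches of 6423 bp (chr15:85672679-85679101) and 5928 bp (chr6:31074823-31080750) lay outside every protein-coding gene. The nearest hairpin to the former was Mirlet7c-2 and to the latter Mir29b-1. Around Mir29b-1 there were 19 lost intervals outside protein-coding genes, 28812 bp in all, between 0.822 and 59.3 kb from the hairpin. Part of this stretch lies in the long non-coding gene Lncpint.

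Outside protein-coding genes there were 339 lost intervals with 0.330 Mb, of which 252 lay within 5 kb of a protein-coding gene and 72 in long non-coding RNA (lncRNA) genes. Among 78 lncRNA genes that overlap no protein-coding gene and hold at least 500 bp of constant territory, 30 had at least 500 bp lost, or 38.5%, and 28.5% of their constant bases were lost. Neat1, the scaffold RNA of paraspeckles, lost 10536 bp, or 93.1% of its constant bases. Its cover was 65.7% to 82.8% in control libraries and at most 2.46% under restriction. Malat1, a nuclear RNA of splicing speckles next to it on chromosome 19, was covered to 81.6% to 86.9% in control libraries and to 6.0%, 0, 8.43% and 21.1% in the restricted ones. Lincmd1, the muscle transcript around Mir206, went from 51.0% to 82.0% down to at most 2.43%. Genes with symbols starting Snhg, hosts of small nucleolar RNAs, held a lost interval in 7 of 10 cases, among them Snhg1, Snhg3 and Snhg5, while their share of constant bases lost, 30.9%, was close to the 28.5% of all lncRNA genes tested. The lncRNA genes and the Snhg group were named after their values were seen.

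Promoter windows were few in constant territory, and lost intervals touched more of them per length than kept intervals. Any overlap counted, down to 1 base, and lost intervals, being shorter, have more ends per Mb. Of 31396 RefSeq promoter windows, from 250 bases before to 50 after a start, 65 were touched by lost intervals, 230 by kept intervals and 473 by any constant interval. This is 18.4 windows per Mb of lost and 4.62 per Mb of kept intervals, and 13.7% of the constant windows beside 4.34% of constant bases. The 3 windows touched by the longest lost intervals are printed to show the sequence where lost territory met an annotated start. The windows of Arhgef2 and Gm16104 lie wholly in their interval. Of the Lmna window 217 of 300 bases do, all of them before the start. All 3 starts lie inside gene bodies: within Arhgef2 itself, within Lmna itself, and for the non-coding Gm16104 within Nfic. The capitals mark the 50 bases from the start on, and the sequences are from RefSeq (GRCm38.p6).
Arhgef2 chr3:88629223-88629522 plus strand: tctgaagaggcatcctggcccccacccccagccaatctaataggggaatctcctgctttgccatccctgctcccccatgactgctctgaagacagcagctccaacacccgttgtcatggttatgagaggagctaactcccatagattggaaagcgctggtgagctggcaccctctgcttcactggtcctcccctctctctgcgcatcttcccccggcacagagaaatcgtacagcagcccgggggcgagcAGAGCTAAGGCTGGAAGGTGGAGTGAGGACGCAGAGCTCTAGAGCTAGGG
Gm16104 chr10:81409325-81409624 plus strand: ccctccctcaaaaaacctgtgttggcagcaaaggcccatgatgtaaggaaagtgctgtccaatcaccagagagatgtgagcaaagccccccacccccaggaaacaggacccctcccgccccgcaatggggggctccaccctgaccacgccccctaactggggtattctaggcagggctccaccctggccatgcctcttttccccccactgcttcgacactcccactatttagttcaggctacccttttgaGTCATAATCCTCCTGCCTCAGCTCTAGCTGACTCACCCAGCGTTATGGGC
Lmna chr3:88493263-88493562 minus strand: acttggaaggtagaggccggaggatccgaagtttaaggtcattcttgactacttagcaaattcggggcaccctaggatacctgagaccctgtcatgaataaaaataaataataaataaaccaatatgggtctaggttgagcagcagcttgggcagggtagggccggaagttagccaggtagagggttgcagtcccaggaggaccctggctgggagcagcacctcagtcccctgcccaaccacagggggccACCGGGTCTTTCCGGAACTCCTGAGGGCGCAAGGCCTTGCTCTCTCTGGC
They hold 8, 5 and 7 CG dinucleotides, and the median was 7 both over all windows and over the 65 touched.

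Functional groups were then described by how many of their measured members held at least 500 bp of lost territory, beside the 20.8% of all genes tested. The share of their constant bases lost is given too, 4.18% over all genes. The lists and members were chosen with earlier results of these data known, so a list above these shares is a description and not evidence. A gene with more constant territory has more room for 500 bp to be lost, so the counts are not like for like. In the glycolysis list 12 of 17 held lost territory, with 12.6% of bases lost. Gapdh (chr6:125161852-125166467) was covered to 74.1% to 78.4% in control libraries and to 0, 7.6%, 9.3% and 0 under restriction. The glycolytic enzyme genes Tpi1 and Eno3 lost 59.0% and 60.9% of their constant bases. The glucose transporter gene Slc2a1 had 80.0% to 91.9% against 33.7% to 38.7%, and Pkm, the pyruvate kinase gene, 95.3% to 97.6% against 57.6% to 66.3%.

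In the cytoskeleton and adhesion list 19 of 28 held a lost interval, with 11.6% of constant bases lost. Lmna, which encodes the nuclear lamins A and C, lost 47.6% of its constant bases, and its cover was 62.5% to 69.2% in control and 23.5% to 24.7% in restricted libraries. Zyx, a focal adhesion protein gene, lost 34.9%, and Tpm1, a tropomyosin gene, 28.3%. In the extracellular matrix list 12 of 20 did, with 7.28%. There Timp2, an inhibitor of matrix metalloproteinases, lost 13422 bp in 12 intervals, with cover of 78.7% to 90.2% against 29.4% to 41.2%. Serpinh1, the collagen chaperone, lost 29.7% of its constant bases and Sparc 12.1%. Constant territory was 744 kb over the 28 cytoskeleton genes and 706 kb over the 20 matrix genes, against 79125 kb over all 7930 genes tested.

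Immediate early genes and other short regulators gave 13 of 20, with 38.1% of constant bases lost and 9 genes at 50% or more. Their median length was 4.46 kb, and among all genes up to 5 kb the share with at least 50% lost was 18.7%. Besides Jun, Rhob, Btg1 and Snai1, the list holds Dusp1, a phosphatase of MAP kinases, which had 70.0% to 82.1% in control libraries. Under restriction it was covered in D5_MR replicate 1 only, to 10.1%. Fosl1, another AP-1 subunit gene, had 66.6% to 89.7% against 3.8% to 18.2%. Hes1, a Notch target, and Zfp36, an RNA-decay factor, each lost all constant bases. For Dusp1, Fosl1, Hes1 and Zfp36 the lowest control library was above the highest restricted one, as the choice of intervals favours.

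The amino acid response list gave 9 of 20, with 9.83% of constant bases lost. Ddit4 and Nupr1, a stress-induced chromatin protein gene, had no covered base in the restricted libraries, against 69.9% to 82.1% and 54.7% to 58.2%. Trib3, a target of the ATF4 factor, lost its 747 bp of constant territory, yet its libraries overlapped: D5_CTL replicate 2 had 11.3% and D1_MR replicate 1 had 29.6%. Eif4ebp1, an inhibitor of cap-dependent translation, had 56.0% to 76.9% against 13% to 20.2%. Splicing factors of the SR and hnRNP families gave 14 of 30 and 6.13% of bases, with Srsf2 at 73.2% and Srsf1 at 55.3% of constant bases lost.

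Among myogenic and sarcomere genes 4 of 10 held a lost interval, with 3.28% of constant bases lost, below the 4.18% of all genes. Myod1 (chr7:46376474-46379092), the gene of the factor that defines the labelled myoblast type, was covered to 50.1% to 78.4% in the control libraries. It had no covered base in the 4 restricted libraries. Desmin, the muscle intermediate filament gene Des, had 83.9% to 89.1% against 34.5% to 43.9%, and Chrna1, an acetylcholine receptor subunit, 88.6% to 90.0% against 40.4% to 63.8%. The signalling list gave 12 of 26 and 6.92% of bases, with Smad3, Igfbp5 and Irs1 at 30.4%, 28.3% and 27.8% of constant bases lost.

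The other lists stood nearer the background by gene count. Translation factors and tRNA synthetases gave 11 of 30 with 2.77% of constant bases lost, and transcription and chromatin genes 10 of 30 with 3.04%. Enzymes and readers of H3K36 methylation gave 8 of 26 with 1.40%, and chaperones 8 of 29 with 1.79%. The proteasome and ubiquitin list gave 5 of 26 with 1.09%, and the methionine cycle and folate list 3 of 17 with 2.07%. By bases, cell cycle genes (5 of 20, 8.98%) and cytosolic ribosomal proteins (7 of 29, 8.67%) were above the 4.18% of all genes. The ribosomal genes had a median length of 3.67 kb, and both their shares were below those of all genes up to 5 kb, of which 28.5% held lost territory, with 19% of constant bases lost. The cell cycle count includes Cdkn1b, the p27 inhibitor gene, which lost all of its constant bases, and Ccnd1, the cyclin D1 gene, which lost 51.0%. Mat2a, which makes S-adenosylmethionine, lost 642 bp, or 11.4% of its constant bases.

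With other peak settings the background rose, and some lists came nearer to it. With wild-type lists of equal covered length, 25.4% of all genes tested held at least 500 bp of lost territory and 5.82% of their constant bases were lost. There the signalling list gave 9 of 25 and 6.48% of bases, the amino acid response list 6 of 17 and 9.25%, and the SR and hnRNP list 11 of 30 and 7.19%. With −log10 q of at least 3 the background was 33.9% of genes and 9.85% of bases. The extracellular matrix list then had 12 of 17 and 11.1%, and the SR and hnRNP list 16 of 30 and 10.4%. Under the same settings, in that order, glycolysis gave 12 of 16 and 17.8%, then 12 of 17 and 21.4%. Cytoskeleton and adhesion gave 18 of 28 and 12.8%, then 19 of 28 and 15.3%. The short regulators gave 12 of 16 and 42.9%, then 15 of 17 and 53.3%.

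**Figure D4:**
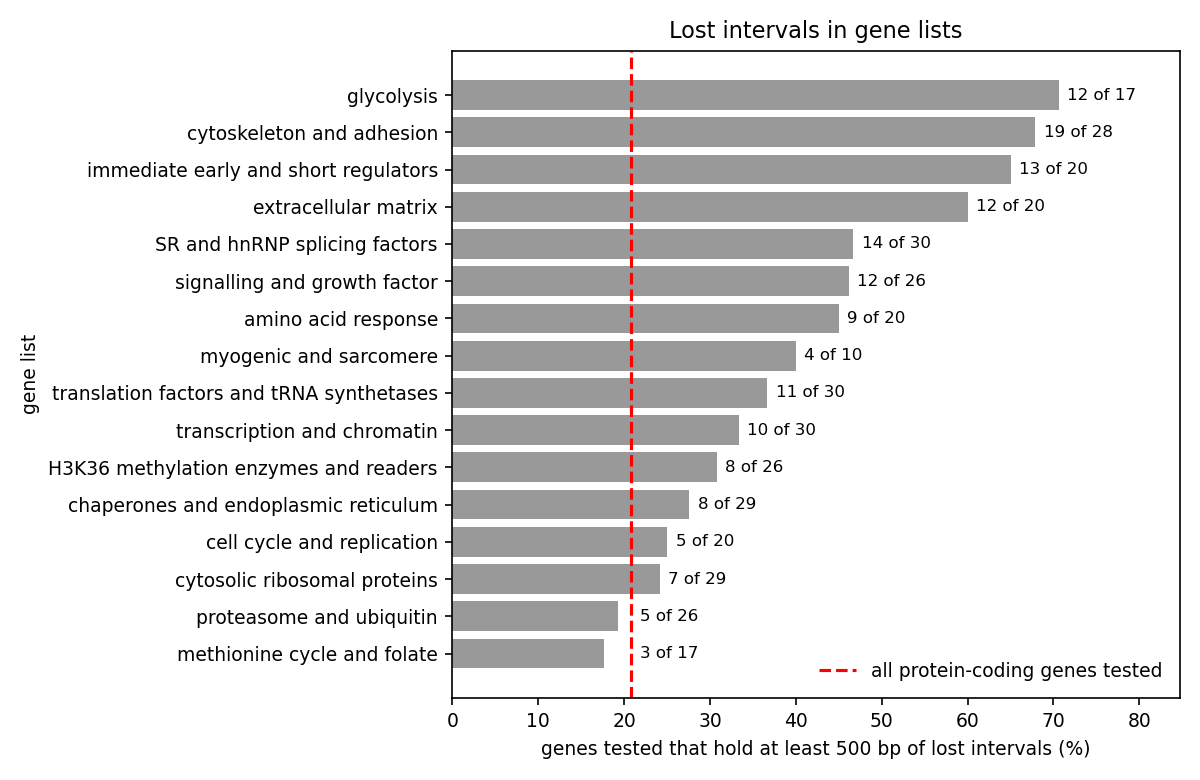
Percent of the genes tested in each of 16 lists that held at least 500 bp of lost intervals (bars, x axis), with the count beside each bar. The dashed line is the 20.8% of all protein-coding genes tested, and glycolysis, with 12 of 17, is farthest above it. The lists were chosen with earlier results of these data known.

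The knockout lists, which the choice of intervals did not use, allowed a test. Percent cover of lost intervals was set against that of kept intervals in each library. In KO_1 lost intervals were covered to 9.08% at D0, 8.54% in D1_CTL, 0.0147% in D1_MR, 52.9% in D5_CTL and 39.0% in D5_MR. Kept intervals were covered to 19.2%, 12%, 0.229%, 54.1% and 22.2% in the same order. Lost intervals were below kept ones in 4 of the 5 libraries and above them in D5_MR. In D5_CTL the direction turned with position: cover was 57.3% for lost and 48.8% for kept intervals in the first of 3 equal parts of the gene. With kept intervals weighted to the position and host length of lost ones, lost intervals were 1.97 points higher in D5_CTL. Within host genes the direction was the opposite: lost intervals in protein-coding genes had 53.4%, and kept intervals on genes that hold a lost interval 72.7%. The same values were 8.57% and 31.1% at D0, and 8.23% and 22.9% in D1_CTL. KO_2 covered at most 0.331% of either set. Over both lines the mean difference, lost minus kept, was 0.239 points ± 6.66 (SD, n = 10 libraries). An exact two-sided sign-flip permutation test gave p = 0.910 (adjusted 1 over 4 tests). The 5 KO_2 libraries and D1_MR of KO_1 covered so little of either set that their differences had to lie near 0, so this p says little about whether lost and kept intervals differ.

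Within KO_1 the mean difference was 0.396 points ± 9.98 (SD, n = 5 libraries), higher in 1 of 5 libraries (exact permutation p = 1). In KO_2 it was 0.0824 points ± 0.124 (SD, n = 5 libraries), higher in 4 of 5. In its exact permutation test 4 of 32 arrangements gave a difference as large, which becomes an adjusted p of 0.25, and the smallest p possible was 0.0625. The libraries of a line are the same cells, so these p-values measure only the spread between libraries.

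The D5_MR library of KO_1 stood apart from the other libraries of its line. Of 1807 lost intervals at least 50% covered in D5_CTL, 1047 (57.9%) were also at least 50% covered in D5_MR, against 4145 of 12694 kept intervals (32.7%). The difference was present in each of 3 equal parts of the gene: 41.4% against 17.6% cover in the first, 43.3% against 23.6% in the middle and 37.3% against 21.9% in the last. Kept intervals on the genes that also hold a lost interval were covered to 41.0% in this library, beside 39.5% for lost intervals in protein-coding genes and 15.4% for kept intervals on other genes. For all lost intervals, including those outside protein-coding genes, the mean difference from these same-host kept intervals over the 10 libraries was -5.83 points (exact permutation p = 0.0625). Without the D5_MR library of KO_1, the difference from all kept intervals was -1.61 points (exact permutation p = 0.184).

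**Figure D5:**
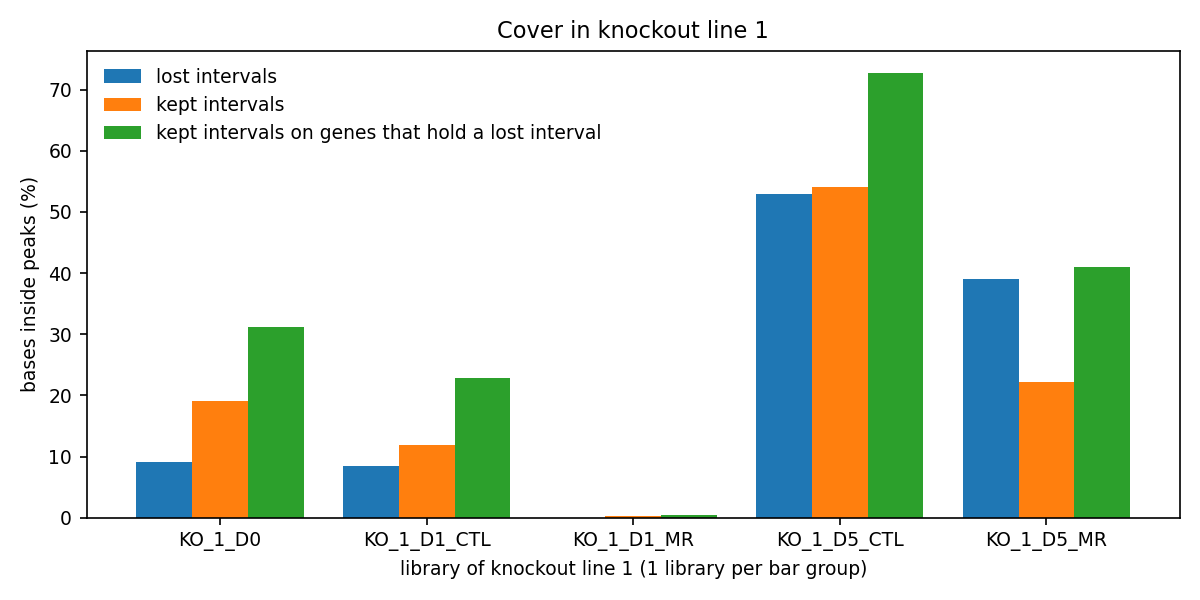
Percent of bases inside peaks (y axis) in the 5 libraries of KO_1 (x axis) for lost intervals, kept intervals, and kept intervals on genes that hold a lost interval. In D5_MR the lost intervals, at 39.0%, are above all kept intervals and close to those of the same genes, at 41.0%.

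Some short genes with at most 19.5% cover in any restricted wild-type library were covered in this library. In D5_MR of KO_1, Ddit4 was covered to 92.0%, Snai1 to 87.4%, Btg1 to 85.2%, Vamp2 to 83.9% and Jun to 68.2%, while Rhob and Rps18 had no covered base. Among the longest intervals, those of Cd81, Runx1 and Myh9 were covered to 88.3%, 88.8% and 91.7%. The interval of Mir23a and Mir27a was covered to 100% at D0, D5_CTL and D5_MR of KO_1 and to 90.3% in D1_CTL. Intervals over Mir130a, Mir301 and Mir6944 had no covered base in any KO_1 library. The 5 lost intervals with the highest mean cover in KO_1 lay in Col3a1, Nfix (a pair of them), Scd2 and Nrp2, all with 100% cover in 4 libraries and none in D1_MR. Their means were equal and ties were ordered by length, so a shorter interval with the same mean would not be named.

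Control and restricted knockout libraries were compared over the lost intervals. Cover was 5.66 points ± 6.73 (SD, n = 4 pairs) higher in control than in restricted libraries, with the same direction in 4 of 4 pairs of line and day. The mean was 11.2 points in KO_1 and 0.149 in KO_2, whose cover of lost intervals was at most 0.331%, so the size rests on KO_1. Kept intervals differed by more in KO_1: 11.7 points at D1 and 31.9 at D5, beside 8.52 and 13.8 for lost intervals. The lists themselves differed in size, with 778 peaks (0.302 Mb) in D1_MR of KO_1 against 18882 (13.7 Mb) in D1_CTL, and 52044 (45.4 Mb) in D5_MR against 63769 (73.2 Mb) in D5_CTL. Their part in the result was not tested. In the exact two-sided permutation test 2 of the 16 arrangements gave a difference as large, the fewest possible, so this design cannot pass 0.05. The adjusted p was 0.25.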

How the data were processed

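Broad peaks of 20 H3K36me3 libraries were deposited by the authors, 1 list per library. Coordinates are on GRCm38, per the submitters' processing notes; the peak caller, its control and the read filters are not given in the sources used here. The authors' fold enrichment ranked peaks within a list, their −log10 q gave 1 alternative, and the deposited score was not used. A Drosophila chromatin spike-in was added, per the labels' protocols, and scaling by it was not part of what was computed.

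Peaks were divided into pieces between all peak ends with Python 3.11.15, numpy 2.4.6 and pandas 2.3.3, a step that was checked against counting base by base (200 simulated sets, 0 with a difference). An interval's host was the protein-coding gene with the largest overlap in the RefSeq table (GRCm38.p6), and position used the interval's midpoint. Cover is the percent of bases inside peaks. Exon and UTR positions were not used here. Knockout values were tested by exact permutation with Benjamini-Hochberg adjustment over 4 tests. Named genes were the 5 longest intervals, the 10 hosts with most lost bases, the 10 hosts of at least 2 kb with the highest share of the body lost, the 5 intervals with the highest mean cover in KO_1, and members of the lists. Alternatives were length minima, −log10 q of at least 3, lists shortened to equal covered length, each day alone and each library left out. The intervals, lists and rules were chosen with earlier results of these data known.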

Additional observations from a re-analysis of the deposited data

How the results depend on the processing

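Of the settings tried, the minimum length moved the count most: 8102 intervals at 250 bp, and 1108 (1.81 Mb, median host 35.9 kb) at 1000 bp. Restricted lists of day 1 alone gave 7232 intervals (7.13 Mb) and of day 5 alone 5548 (5.42 Mb), since fewer lists had to lack the base. With −log10 q of at least 3 the length was 6.28 Mb, the share bordering a restricted peak 55.9% (61.0% as reported), the median position 54.3% and the median host 38.1 kb. Lists shortened by −log10 q to equal covered length gave 75.4%, 51.5% and 33.6 kb for the same measures. Intervals free of restricted peaks, tried after the data were seen, had a median position of 39.4% and a median host of 51.5 kb. Lost intervals stayed nearer the start than kept ones with −log10 q of at least 3 and with lists of equal covered length. The share of constant bases lost, 4.34% as reported, was 10.2% and 6.22% under these settings, in that order. Shares of hairpins and promoter windows are given for the deposited lists only.

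Leaving out each wild-type library gave 3906 to 4619 intervals, 3.79 to 4.53 Mb, a bordering share of 60.1% to 61.7%, a median position of 43.2% to 48.1% and a median host of 40.7 to 44.2 kb. The knockout difference, lost minus kept, changed sign with −log10 q of at least 3 (-0.115 points), with wild-type lists of equal covered length (-0.208) and against kept intervals of the same hosts (-5.83). It ranged from -1.61 to 1.38 points when each knockout library was left out, and was never past 0.05. Causes of these shifts were not tested. No paired analysis was possible by replicate number, because the wild-type results are descriptions with no test and each knockout group holds 1 library. The knockout tests are paired in another way, by library or by line and day. Unknown depth limits every absence of a peak.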

Other observations

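By the authors' fold enrichment, the control peaks that hold lost intervals stood at a median percentile of 74.0 to 88.6 within their list, and those that hold kept intervals at 86.7 to 92.4. In each of the 6 control lists the median was lower for lost intervals. The rank is that of the whole peak, and both sets of intervals were already limited to bases inside peaks of all 6 lists.

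Some of the next longest lost intervals, outside the rule for named intervals and picked after their values were seen, were 5885 bp in Lasp1, an actin-binding protein gene, 4363 bp in Ahnak, 4179 bp in Cavin1, a coat protein gene of caveolae, and 3963 bp in Anxa2, a membrane-binding annexin gene. An interval over S100a6, a calcium-binding protein gene of 1521 bp, spanned 4891 bp and so ran beyond the gene.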
